A study of Mus musculus with 8 samples.

Results

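The promoters of Mrpl23, Hgfac, Atp2b4 and Rex1bd are 4 of the 10513 mouse protein-coding genes that had at least 1 H3K27ac HiChIP loop at their start site in HPC-7 cells. They were selected on the numbers of loops described here. Each had at least 7 more promoter loops in p30 than in p42 cells, both untreated and after LPS, when the 4 loop lists were cut to the same size. A promoter loop was any listed pair of 5 kb bins of which 1 bin held the canonical start site, called the start-site bin below. The 4 genes had 82 promoter loops in untreated p30 cells, 76 in LPS-treated p30 cells, 89 in untreated p42 cells and 34 in LPS-treated p42 cells, out of lists of 80489, 94609, 158233 and 78591 loops.

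HiChIP ligates chromatin fragments that are near each other in the nucleus, enriches those that carry a histone mark with an antibody, and counts the ligation products between pairs of regions. HPC-7 is a mouse hematopoietic progenitor line with very low levels of endogenous CEBPA. It was transduced with retroviruses that drive a fusion of ERT2 with CEBPA p30, the shorter isoform, which lacks part of the transactivation region, or with p42, the full-length isoform, and transduced cells were sorted by GFP. Cells of each line were either untreated (UT) or exposed to LPS, a TLR4 ligand, at 100 ng/mL for 2 h. Per the study's methods, cells with ERT2 fusions were given 4-hydroxytamoxifen, which moves the fusions into the nucleus, on the day before an experiment, whereas the labels of these libraries do not name it. No group carries an empty vector, so that p30 and p42 can be compared with each other but not with the parental line. Each of the 4 groups has 2 replicates, but the deposited lists hold 1 pooled set of loops per group. No spread between replicates can be given, no test was run, and the intervals below cover counting error only.

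H3K27 acetylation marks active promoters and enhancers, and loops between such regions are one way in which distal enhancers reach the genes they act on. The 4 genes belong to no common pathway. Mrpl23 encodes a protein of the large subunit of the mitochondrial ribosome and lies beside the imprinted Igf2 region. Hgfac encodes a secreted serine protease that activates hepatocyte growth factor (HGF) and is known as a product of the liver. Atp2b4 encodes the plasma membrane calcium pump PMCA4, which exports calcium from the cell. No role is given here for Rex1bd.

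In GRCm39, the canonical start of Mrpl23 is at position 142086749 of chromosome 7 on the plus strand, in the bin chr7:142085001-142090000. Hgfac starts at position 35198853 of chromosome 5, also on the plus strand, in the bin chr5:35195001-35200000. Atp2b4 starts at position 133728923 of chromosome 1 on the minus strand, in the bin chr1:133725001-133730000. Rex1bd starts at position 70959404 of chromosome 8 on the minus strand, in the bin chr8:70955001-70960000. No other protein-coding gene has its canonical start in any of these 4 bins, and all 4 bins carried an H3K27ac peak in every list. All annotated transcripts of Mrpl23 (13) and Rex1bd (20) start in the start-site bin. Those of Hgfac (18) start in 2 bins and those of Atp2b4 (9) in 4 bins, so that loops from the shorter Atp2b4 transcripts are not counted here.

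The promoter windows, from 250 bases before to 50 bases after each canonical start, are shown because they hold the start sites by which the bins were chosen. Capitals mark letters of the motifs searched on both strands.
Mrpl23 promoter, chr7:142086499-142086798, plus strand: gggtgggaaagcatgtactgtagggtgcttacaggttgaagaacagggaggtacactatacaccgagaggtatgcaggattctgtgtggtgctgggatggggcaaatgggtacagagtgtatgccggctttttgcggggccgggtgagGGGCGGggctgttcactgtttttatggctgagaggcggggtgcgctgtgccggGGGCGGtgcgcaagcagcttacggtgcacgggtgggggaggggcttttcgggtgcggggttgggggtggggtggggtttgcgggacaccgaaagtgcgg
Hgfac promoter, chr5:35198603-35198902, plus strand: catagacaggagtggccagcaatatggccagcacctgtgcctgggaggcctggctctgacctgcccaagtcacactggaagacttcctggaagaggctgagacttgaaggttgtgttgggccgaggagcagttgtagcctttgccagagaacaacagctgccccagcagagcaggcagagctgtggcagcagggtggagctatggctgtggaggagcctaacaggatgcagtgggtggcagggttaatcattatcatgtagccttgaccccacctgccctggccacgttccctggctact
Atp2b4 promoter, chr1:133728874-133729173, minus strand: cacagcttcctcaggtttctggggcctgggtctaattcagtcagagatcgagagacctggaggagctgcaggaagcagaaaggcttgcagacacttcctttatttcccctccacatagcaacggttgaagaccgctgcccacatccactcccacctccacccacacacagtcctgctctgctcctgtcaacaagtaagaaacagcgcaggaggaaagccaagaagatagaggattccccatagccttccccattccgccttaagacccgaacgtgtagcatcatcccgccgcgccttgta
Rex1bd promoter, chr8:70959355-70959654, minus strand: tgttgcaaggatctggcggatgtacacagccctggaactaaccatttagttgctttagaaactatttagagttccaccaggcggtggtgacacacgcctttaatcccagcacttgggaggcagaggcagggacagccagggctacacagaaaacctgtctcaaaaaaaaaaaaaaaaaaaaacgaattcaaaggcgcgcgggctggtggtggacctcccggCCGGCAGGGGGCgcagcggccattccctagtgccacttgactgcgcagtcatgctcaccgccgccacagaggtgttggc

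The 4 windows differ in base composition. Mrpl23 has 17 CpG dinucleotides in 300 bases, Rex1bd 14, Atp2b4 10 and Hgfac 2, against a median of 11 over the windows of 21751 genes. The letters GGGCGG of the GC box are present at 2 places in Mrpl23, with first bases 102 and 49 bases before the start, and such a match is present in 42.5% of all windows. None of the 4 windows holds TTGCNNAA (C/EBP), which is present in 10.7% of all windows. TGANTCA (AP-1), TGACGTCA (CRE), CCGGAAG (ETS) and the NRF1 motif were also not found in any of the 4, and are present in 7.14%, 2.45%, 10.3% and 5.81% of all windows. Rex1bd has a match to a strong form of the CTCF motif, with the first base 29 bases before the start, and 1.59% of all windows hold one. The RefSeq promoter window of Rex1bd, which is set on another start, does not hold it. No motif searched overlaps another in these windows.

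The loop counts that chose the genes are given first, as a description. In lists of equal size, each holding its 78591 loops with the smallest q-values, Mrpl23 had 27 promoter loops in untreated and 19 in LPS-treated p30 cells, and 15 and 9 in p42 cells. Below, sets of 4 values follow this order, p30 UT and LPS and then p42 UT and LPS. Atp2b4 had 23, 16, 16 and 7 loops. Hgfac had 15, 21, 8 and 9, and Rex1bd had 17, 16, 9 and 9. Mrpl23 and Atp2b4 had their highest count in untreated p30 cells, whereas Hgfac had it in p30 cells after LPS. Of all 10513 genes, 14.7% had more loops in p30 under both treatments and 0.0476% had at least 7 more, which is how the 4 genes were found. The smaller of both differences was 10 for Mrpl23 and 7 for the other 3. H2-Ob, which is not described here, also reached 10. The 13 genes just outside had a smaller difference of 6, among them Hmga1 (14, 16, 8 and 9 loops), Jak3 (8, 12, 2 and 1) and Wasf2 (19, 18, 13 and 12).

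**Figure D1:**
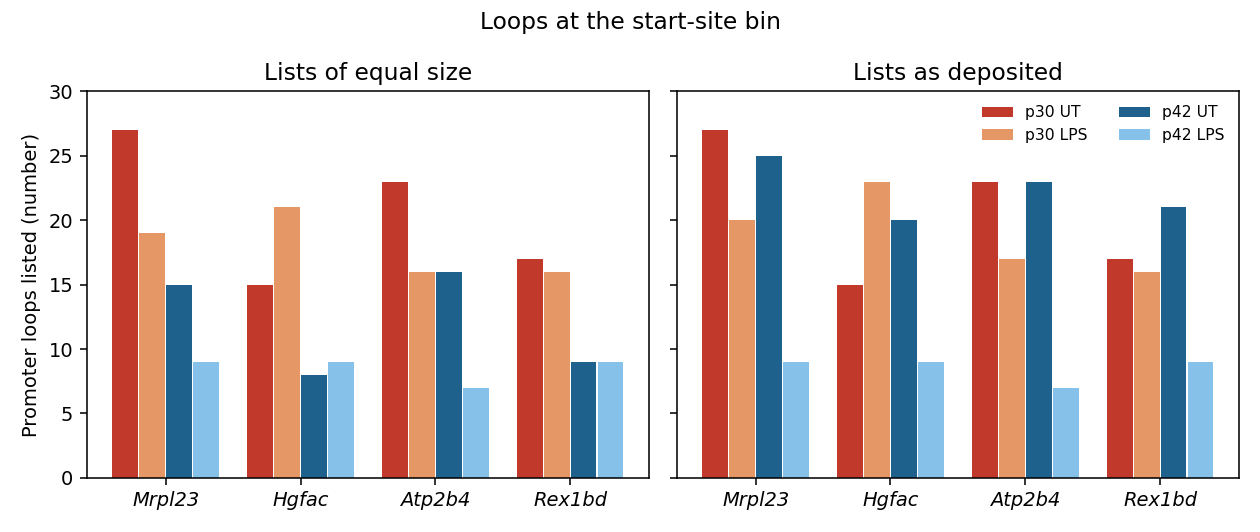
Number of listed loops with a bin at the canonical start site (vertical axis) for each gene and list, in lists of equal size (left) and as deposited (right). With equal size, both p30 bars of each gene exceed the p42 bar of the same treatment; as deposited, the p42 UT bar of Hgfac (20) and Rex1bd (21) exceeds that of p30 UT (15 and 17).

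The untreated comparison depended on the size of the p42 UT list. As deposited, Mrpl23 had 27 loops in p30 UT and 25 in p42 UT, Atp2b4 had 23 and 23, Hgfac had 15 and 20, and Rex1bd had 17 and 21. Only Mrpl23 kept more loops in p30, and 7.95% of all genes had more in p30 UT than in p42 UT in these lists, whereas 79% had more in p42 UT. After LPS, the deposited lists gave 20 and 9 loops for Mrpl23, 17 and 7 for Atp2b4, 23 and 9 for Hgfac, and 16 and 9 for Rex1bd. All 4 had more in p30, as did 51% of all genes, whereas 20.6% had more in p42. With the same q-value limit of 0.001 in every list, no gene of the 4 had more loops in p30 UT than in p42 UT (21 and 21 for Mrpl23, 18 and 21 for Atp2b4, 10 and 15 for Hgfac, 11 and 14 for Rex1bd). After LPS, all 4 had more in p30 at that limit, with 19 and 8, 12 and 5, 19 and 7, and 13 and 9 loops in that order of genes. At q-values up to 1e-05, Rex1bd had 5 and 5 loops after LPS. With adjacent partner bins merged into 1 partner, lists of equal size gave equal numbers for Mrpl23 in UT (8 and 8) and for Rex1bd in UT (5 and 5) and after LPS (6 and 6).

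LPS against UT within an isoform was not used to choose the genes. In p30, lists of equal size held fewer loops after LPS for Mrpl23, Atp2b4 and Rex1bd and more for Hgfac, and 31.5% of all genes had fewer. In p42, Mrpl23 and Atp2b4 had fewer loops after LPS, Rex1bd had 9 in both lists and Hgfac had 1 more, and 38.3% of all genes had fewer. The 5th percentile of the difference over all genes was -3 loops in both isoforms. Mrpl23 and Atp2b4 lay beyond it in p30 (27 and 19 loops, 23 and 16 loops) and in p42 (15 and 9, 16 and 7), and Hgfac in p30 (15 and 21) lay beyond the 95th percentile of 4. As deposited, all 4 genes had fewer loops after LPS in p42, including Rex1bd (21 and 9) and Hgfac (20 and 9), as had 82.6% of all genes. In p30 the deposited lists kept the directions of the lists of equal size for all 4 genes, and 24.4% of all genes had fewer loops after LPS. These same lists entered the choice of the genes, so the low counts in p42 LPS are not independent of the rule.

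In all, the start-site bins were joined to 118 partner bins in the deposited lists. Of these, 29 were present in all 4 lists and 36 in 1 list: 17 in p42 UT, 11 in p30 UT, 8 in p30 LPS and 0 in p42 LPS. All 34 partner bins of p42 LPS were also present in at least 1 p30 list. With lists of equal size, 20 partner bins were present in both p30 lists and in no p42 list, whereas 0 were present in both p42 lists and in no p30 list, out of 103 bins in any of these lists. Over the promoter loops of all genes these shares were 3.75% and 4.14%. The genes were chosen for more p30 loops in the same lists, so the direction follows from the rule. Of these 20 bins, 12 were present in the deposited p42 UT list below the limit for equal size, and 8 were in no p42 list. Whether most of these 20 bins counted as absent from p42 therefore depended on where the p42 UT list was cut. The 20 bins had fewer contacts than the bins found in all 4 lists of equal size, which are strong loops by construction. Their median in p30 UT was 21.5 contacts against 31 for Mrpl23, 14.5 against 29 for Hgfac, 21 against 38 for Atp2b4 and 13.5 against 19.5 for Rex1bd. Over expected counts, the median ratio in p30 UT was 4.09 against 9.10 for Mrpl23, 5.41 against 12.6 for Hgfac and 5.96 against 8.27 for Rex1bd, but 4.70 against 4.40 for Atp2b4. Only 16 of the 118 partner bins held the canonical start of a protein-coding gene, and 5 of these were in all 4 lists.

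**Figure D2:**
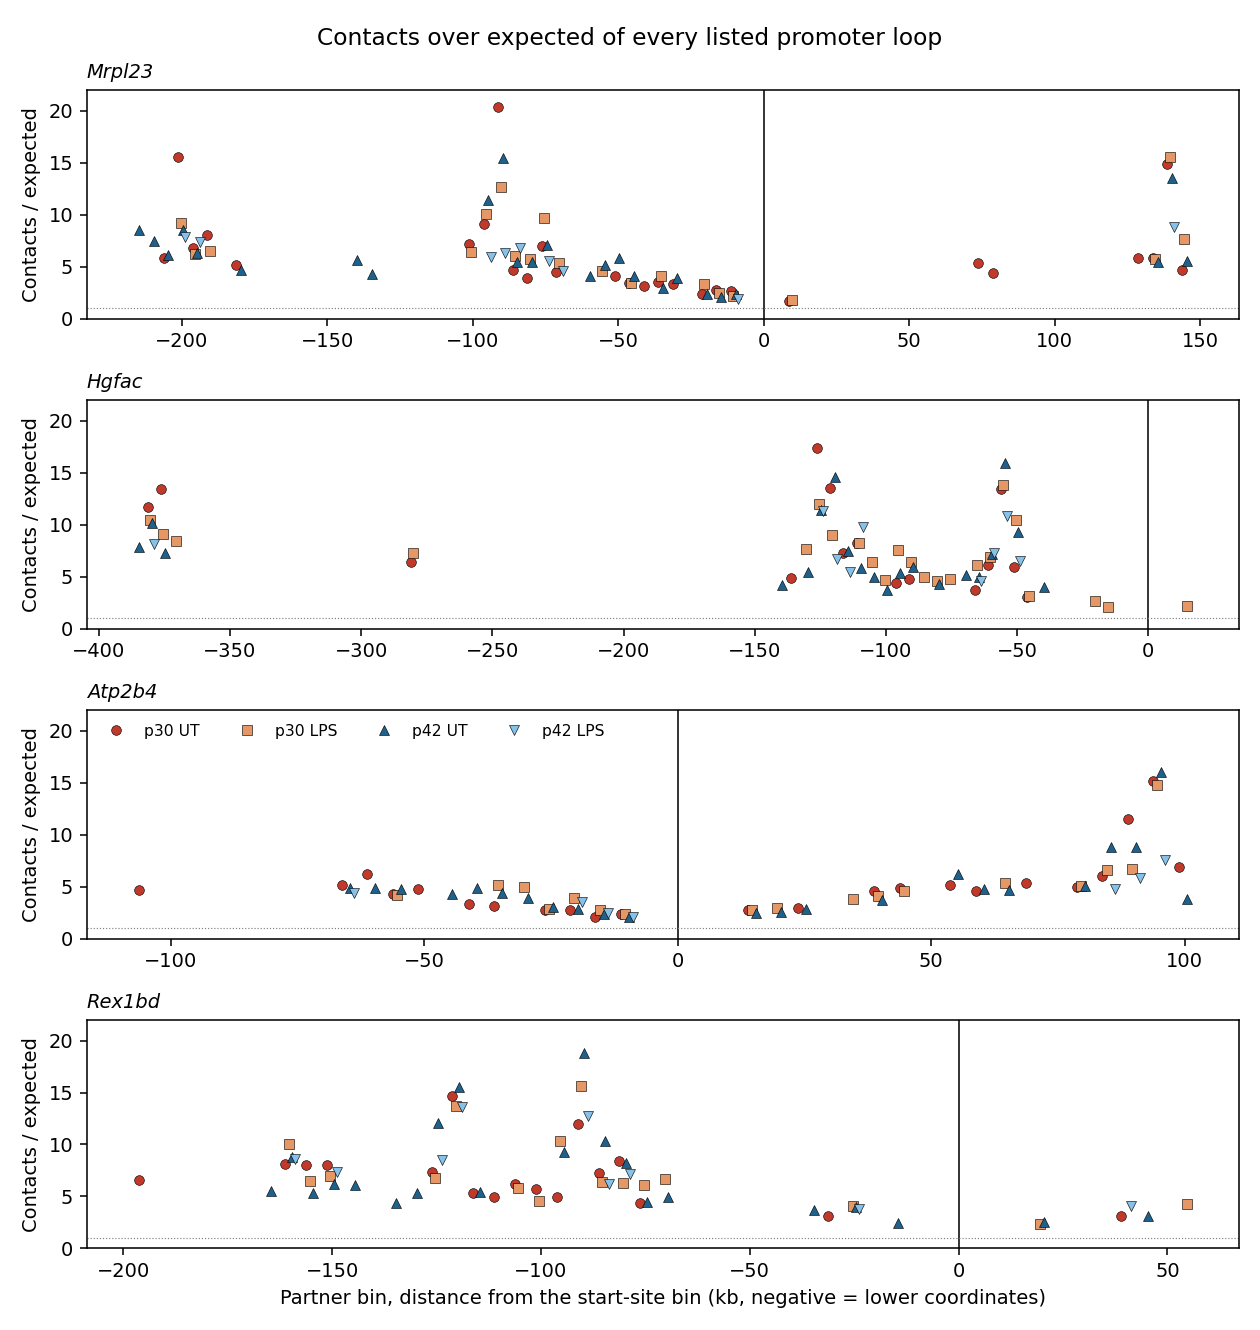
Contact count divided by the caller's expected count (vertical axis) of every deposited promoter loop, by the distance of the partner bin from the start-site bin in kb (horizontal axis, negative toward lower coordinates). Colours and symbols mark the 4 lists, with small horizontal offsets; the dotted line is a ratio of 1. The peaks at -90 and 140 kb for Mrpl23, -55 and -125 kb for Hgfac, 95 kb for Atp2b4 and -90 and -120 kb for Rex1bd have points from all 4 lists.

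Mrpl23 was joined to 33 bins, 26 at lower coordinates (upstream) and 7 downstream, up to 215 kb away. The upstream partners ran over Tnnt3, Prr33, Lsp1, Tnni2, Syt8 and Ifitm10. Tnnt3 and Tnni2 encode fast skeletal muscle troponins, Lsp1 a leukocyte-specific actin-binding protein, and Syt8 a synaptotagmin. The loop with the highest ratio over the 4 lists reached the start of Tnni2 90 kb upstream (chr7:141995001-142000000). In p30 it had 75 contacts in UT and 37 after LPS, and in p42 54 and 18, with expected counts of 3.68, 2.91, 3.49 and 2.84. The p30 list was higher under both treatments, and p42 LPS was the lowest. The bin at the start of Lsp1, 75 kb upstream, had 31, 35, 31 and 20 contacts, so that UT was equal in both isoforms. Inside Ifitm10, 200 kb upstream, the loop had 26, 14, 14 and 12 contacts, of which p30 UT stood above the others.

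On the downstream side, the bin 140 kb from Mrpl23 (chr7:142225001-142230000) was the only partner of Mrpl23 in all 4 lists without an H3K27ac peak. It holds no protein-coding gene and lies between Igf2, which encodes an insulin-like growth factor, and Ins2, 1 of the mouse insulin genes. The loop had 36 (UT) and 33 (LPS) contacts in p30 and 33 and 18 in p42, against 2.42, 2.12, 2.44 and 2.03 expected. The first 3 lists were alike and p42 LPS was lower. Its neighbours, the starts of Gm49394 (135 kb) and Ins2 (145 kb), were joined in every list but p42 LPS. The Ins2 start had 11, 16 and 13 contacts in these lists and the Gm49394 start 14, 12 and 13. A pair that the caller did not list has no count in these files.

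Hgfac was joined to 29 bins, 28 of them upstream and 1, at the start of Dok7, downstream in p30 LPS. Rgs12, which encodes a regulator of G protein signalling, held 13 of the 29 bins, of which 6 (UT) and 11 (LPS) were listed in p30 and 8 and 4 in p42. The largest number of contacts was at an intronic bin of Rgs12 55 kb upstream (chr5:35140001-35145000), with 60 (UT) and 46 (LPS) in p30 and 59 and 34 in p42. The UT lists differed by 1 contact. At the start of Msantd1, 125 kb upstream (chr5:35070001-35075000), the counts were 37, 22, 22 and 20, so that p30 UT was above the other 3. A loop of 380 kb reached the bin that holds the starts of Nop14, a ribosome biogenesis factor, and Grk4, a G protein-coupled receptor kinase, with 15, 13, 13 and 10 contacts. The start of Htt, the huntingtin gene, at -280 kb, was joined in both p30 lists and in no p42 list. Its loop held 19 contacts over both p30 lists, 6.84 times the expected counts.

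Atp2b4 was joined to 28 bins, none with a canonical protein-coding start. Its partners lay within 105 kb, 13 at lower coordinates (downstream, since the gene is on the minus strand) and 15 upstream. Of the downstream bins, 12 overlapped Atp2b4 itself, between 10 and 65 kb from the start-site bin. The bin 45 kb downstream, where 4 shorter Atp2b4 transcripts start, was listed in p42 UT alone, with 19 contacts. Upstream, the strongest contacts over expected were at the bin 95 kb away (chr1:133820001-133825000), which overlaps exons of Optc, the gene of the extracellular matrix protein opticin. It had 38 (UT) and 29 (LPS) contacts in p30 and 39 and 15 in p42, with p42 LPS again the lowest. The adjacent bin at 90 kb had 32, 14, 23 and 12 contacts. The nearest bin within the gene, at 10 kb, had the largest counts (119, 83, 96 and 66), of which 49.7, 34.6, 46.9 and 31.8 were expected from distance and coverage.

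Rex1bd was joined to 28 bins, 24 at lower coordinates, which is downstream. Crtc1, which encodes a CREB coactivator, held 12 of them, with 11 (UT) and 10 (LPS) listed in p30 and 9 and 5 in p42. The 2 highest ratios of contacts over expected were both in Crtc1. At -90 kb, in an intron (chr8:70865001-70870000), there were 26 (UT) and 30 (LPS) contacts in p30 and 41 and 26 in p42, so that p42 UT was the highest. At -120 kb (chr8:70835001-70840000), the counts were 27, 23, 28 and 23. The start of Upf1, a helicase of nonsense-mediated mRNA decay, lay 150 kb away and had 15, 12, 12 and 13 contacts. Of these 3 loops, the one at -90 kb differed most between lists, with 11.9 times the expected count in p30 UT and 18.9 in p42 UT. All 3 were listed in every deposited list. Starts of Klhl26, Comp and Tmem59l were each joined in 1 list: Klhl26 in p30 UT, Comp and Tmem59l in p42 UT.

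The same form of the CTCF motif was then searched in the 4 start-site bins and in the 2 partner bins per gene with the highest contacts over expected. CTCF is a DNA-binding protein known to hold loops at pairs of motifs that point toward each other. A match was found in 3 of the 12 bins, all 3 belonging to Rex1bd, while 5.62% of the 75822 bins listed in any loop hold one. The match in the Rex1bd start-site bin is the same site as that already found in its promoter window. The matches are shown because both ends of the same loops carry them. Capitals mark the match and 24 bases are shown on each side.
Rex1bd start-site bin, chr8:70959398-70959457, minus strand: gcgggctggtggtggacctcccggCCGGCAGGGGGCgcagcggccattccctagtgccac
Crtc1 bin at -90 kb, chr8:70868310-70868369, plus strand: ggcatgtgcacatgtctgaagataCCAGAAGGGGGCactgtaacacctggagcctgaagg
Crtc1 bin at -120 kb, chr8:70838039-70838098, plus strand: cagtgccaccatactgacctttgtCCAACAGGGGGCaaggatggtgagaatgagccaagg
In the Rex1bd bin the match is on the minus strand, and in both Crtc1 bins, at lower coordinates, it is on the plus strand, so that the matches point toward each other. This search was added after the loops were seen. CTCF binding was not measured in these libraries, and the share of all loops with facing matches was not counted. No match in the bins of the other 3 genes says only that this form of the motif is not there.

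Contacts at loops listed in both isoforms compare the same bin pairs. Contacts also set the q-values by which loops were listed, so neither these shares nor the contacts over expected are independent of the loop counts that chose the genes. In UT, Mrpl23 shared 19 loops, with 623 contacts in p30 and 534 in p42, a p30 share of 53.8% (95% Wilson interval 51.0 to 56.7). After LPS it shared 9 loops, with 278 and 183 contacts and a share of 60.3% (55.8 to 64.7). Atp2b4 had 592 and 543 contacts at 19 loops in UT, a share of 52.2% (49.2 to 55.1), and 221 and 173 at 6 loops after LPS, a share of 56.1% (51.2 to 60.9). Each of these 6 loops had more contacts in p30. For Hgfac, 12 loops in UT gave 283 and 263 contacts, a share of 51.8% (47.6 to 56.0), and 8 loops after LPS gave 188 and 148, a share of 56.0% (50.6 to 61.2). Rex1bd had 180 and 212 contacts at 11 loops in UT, a share of 45.9% (41.0 to 50.9), and 141 and 139 at 8 loops after LPS, a share of 50.4% (44.5 to 56.2). These were the lowest shares of the 4 genes, with intervals that overlap those of Hgfac and Atp2b4 and, after LPS, that of Mrpl23.

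These shares have to be read against the depth of the lists. The p30 list held 48.6% of all modelled contacts in UT and 47.8% after LPS. Over all loops shared by both lists, the p30 share of contacts was 43.7% in UT (59069 loops) and 50.9% after LPS (46110 loops). The expected counts of the caller, which follow the coverage of the bins, give a second reference for each gene. In UT, the expected shares of Mrpl23 (53.5%), Atp2b4 (51.9%), Hgfac (53.0%) and Rex1bd (50.3%) all lay within the intervals of the contacts. After LPS, the interval of Mrpl23 lay above its expected share of 55.1%, whereas for Hgfac (51.2%), Atp2b4 (51.5%) and Rex1bd (49.7%) the expected share lay within the interval.

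**Figure D3:**
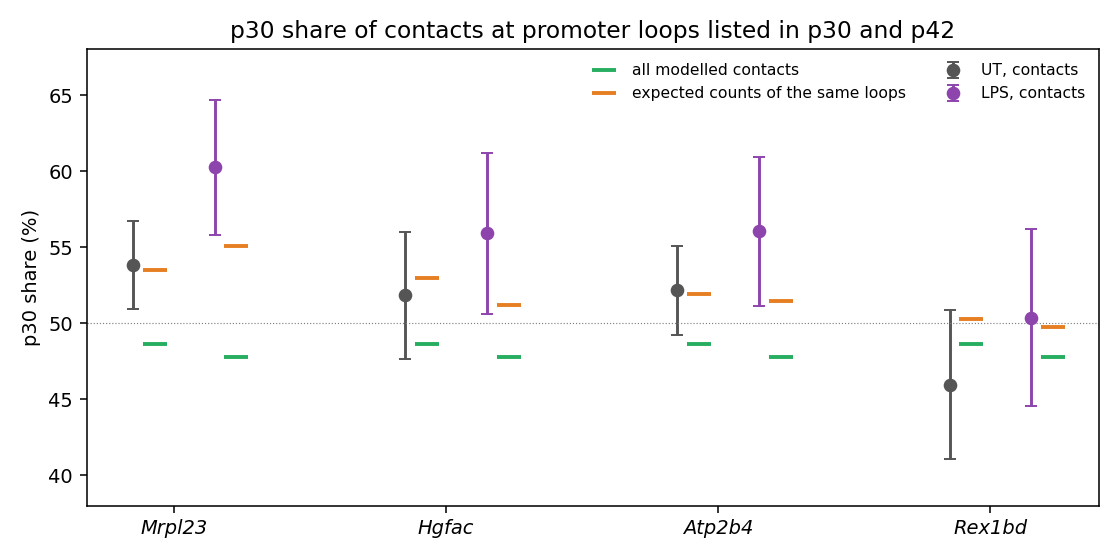
p30 share in percent (vertical axis, from 38 to 68) of contacts at loops listed in both p30 and p42, per gene, in UT and after LPS; bars are 95% Wilson intervals of the contact counts. Green marks give the p30 share of all modelled contacts and orange marks that of the expected counts of the same loops. For Mrpl23 after LPS the interval (55.8 to 64.7%) lies above both marks.

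Contacts over expected were first summed over all deposited promoter loops of a gene. Mrpl23 had 830 (UT) and 538 (LPS) contacts in p30 and 626 and 183 in p42, which is 3.60, 3.63, 4.17 and 3.69 times the expected counts. The values of Atp2b4 were 3.49, 3.50, 3.36 and 2.84, on 663, 434, 635 and 184 contacts. Hgfac had ratios of 7.24, 4.78, 7.15 and 7.75 on 328, 453, 358 and 158 contacts, and the lower ratio in p30 LPS came with 3 loops of 15 to 20 kb listed in that group alone. Without loops under 20 kb, the p30 LPS ratio of Hgfac was 6.32. Rex1bd had ratios of 6.19, 5.71, 5.11 and 6.81 on 266, 264, 396 and 160 contacts. The median ratio over all start-site bins with a loop was between 3.53 and 3.65 in the 4 lists, with 95th percentiles from 7.24 to 7.92. These sums run over different loops in each list. Within UT, the p30 ratio was below that of p42 for Mrpl23 and above it for Hgfac, Atp2b4 and Rex1bd, and after LPS it was above for Atp2b4 and below for the other 3. Without loops under 20 kb, the LPS ratios of Mrpl23 were 6.39 in p30 and 6.38 in p42. On the same bin pairs, those listed in all 4 lists, p30 LPS was above p42 LPS for each gene, as for 70.4% of all start-site bins with such loops. The values there were 4.53 and 3.63 for Mrpl23, 9.65 and 7.98 for Hgfac, 3.34 and 2.78 for Atp2b4, and 9.32 and 9.09 for Rex1bd. Their 95% Poisson intervals overlapped for each gene. In UT on these pairs, p30 was above p42 for Mrpl23 (4.85 and 4.60) and Atp2b4 (3.09 and 3.02) and below it for Hgfac (9.21 and 9.93) and Rex1bd (9.35 and 11.4), also with overlapping intervals, and 17.7% of all such bins were higher in p30 UT.

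Coverage of the start-site bin is the number of reads that fall in it. For Mrpl23 it was 10745 (UT) and 8167 (LPS) in p30, and 10370 and 5031 in p42. For Hgfac it was 11765, 10389, 8813 and 5319, for Atp2b4 8007, 5485, 8816 and 3728, and for Rex1bd 3546, 3206, 3675 and 2569. Peak bins had a mean coverage of 2406, 2239, 2911 and 1939 in these lists, so values were divided by it. Relative to peak bins, Hgfac was at 4.89, 4.64, 3.03 and 2.74, and Mrpl23 at 4.47, 3.65, 3.56 and 2.59. Atp2b4 was at 3.33, 2.45, 3.03 and 1.92, and Rex1bd at 1.47, 1.43, 1.26 and 1.32. Hgfac had the largest ratio of p30 to p42, 1.62 in UT and 1.69 after LPS, and its p30 UT value was above 99.0% of the 6331 start-site bins with coverage in all lists. Rex1bd was below the median of these start-site bins in every list, at 0.92, 0.86, 0.73 and 0.85 times that median.

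The relative coverage was higher in p30 than in p42 under both treatments for all 4 genes, and for 30.4% of all start-site bins; in UT this did not hold on other scales. For Mrpl23 the ratio was 1.25 in UT and 1.41 after LPS, for Atp2b4 1.10 and 1.27, and for Rex1bd 1.17 and 1.08. Over all 6331 start-site bins, the median of the inverse ratio, p42 to p30, was 1.06 in UT and 0.92 after LPS. A typical bin was thus higher in p42 in UT and higher in p30 after LPS. Raw coverage in UT was lower in p30 for Atp2b4 (0.91-fold) and Rex1bd (0.96-fold), and coverage per modelled contact was lower for Atp2b4 (0.96-fold). More coverage gives more chances to list a loop, and its part in the loop counts was not tested. After LPS the relative coverage of the start-site bin was lower in p30 for all 4 genes, as for 39.8% of all bins, and in p42 for all but Rex1bd, as for 77.9% of all bins. Of the 4 genes, Atp2b4 had the lowest LPS to UT ratio, 0.74-fold in p30 and 0.63-fold in p42. Mrpl23 was at 0.82-fold in p30 and 0.73-fold in p42, Hgfac at 0.95-fold and 0.91-fold, and Rex1bd at 0.97-fold and 1.05-fold.

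**Figure D4:**
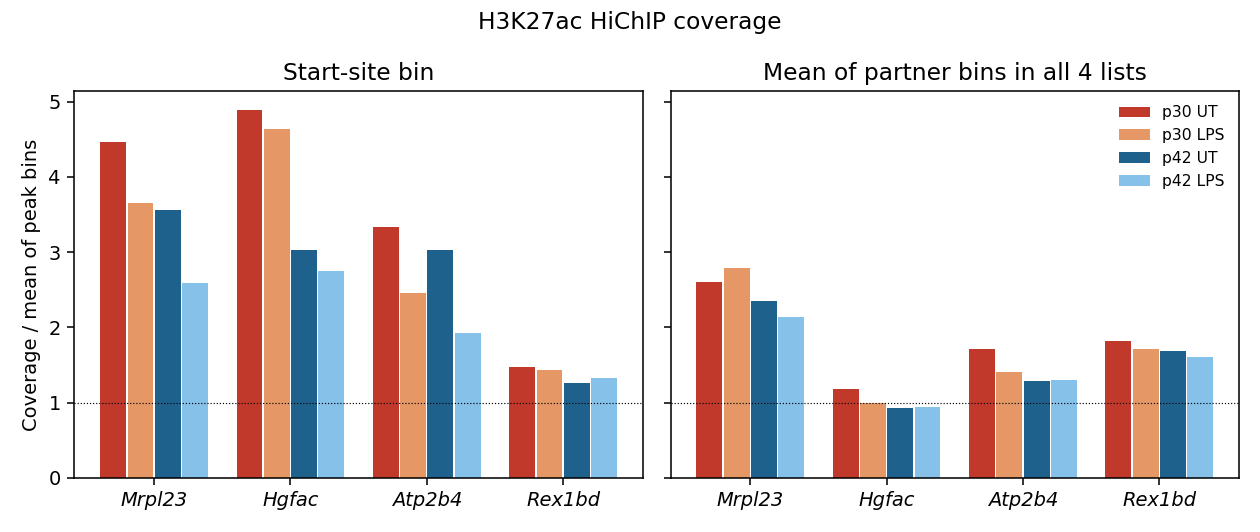
Coverage divided by the mean coverage of peak bins in the same list (vertical axis), for the start-site bin of each gene (left) and averaged over its partner bins present in all 4 lists (right). Dotted lines mark the mean of peak bins. The start-site bins of Hgfac, Mrpl23 and Atp2b4 stand above the mean of their partner bins in every list, and that of Rex1bd (1.26 to 1.47) lies below it.

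The partner bins present in all 4 lists were on average below the start-site bin for Mrpl23, Hgfac and Atp2b4 and above it for Rex1bd, in every list. Averaged over 8 bins, Mrpl23 partners were at 2.60, 2.79, 2.36 and 2.13 times the mean of peak bins. Hgfac partners (8 bins) were at 1.18, 0.99, 0.93 and 0.94, Atp2b4 partners (6 bins) at 1.71, 1.41, 1.29 and 1.31, and Rex1bd partners (7 bins) at 1.82, 1.71, 1.68 and 1.61. On this scale the mean was above that of p42 in p30 under both treatments for each gene, and so were 22 of the 29 single bins (4 of 8 for Mrpl23, 7 of 8 for Hgfac, 6 of 6 for Atp2b4 and 5 of 7 for Rex1bd), against 33.2% of all bins of loops in all 4 lists. Many of these 29 bins are adjacent, and all are partners of promoters chosen for more p30 loops, so they are not independent of each other or of the rule. With raw coverage or coverage per modelled contact, the UT values of Mrpl23 and Rex1bd partners were lower in p30 (0.91-fold and 0.89-fold for raw coverage).

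Loops around the chosen bins were not used by the rule. Within 250 kb on each side, loops that did not touch the start-site bin around Mrpl23 numbered 238 (UT) and 237 (LPS) in p30 and 219 and 216 in p42, with lists of equal size. Around Atp2b4 they numbered 133, 85, 44 and 40, so that the region as a whole had more loops in p30. Hgfac had 51, 42, 25 and 32, and Rex1bd had 233, 293, 234 and 198. Around Rex1bd, UT was alike in both isoforms and LPS was higher in p30. As deposited, p42 UT had the most such loops around Mrpl23 (323), Hgfac (56) and Rex1bd (424), and p30 UT had the most around Atp2b4 (136 against 117 in p42 UT).

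**Figure D5:**
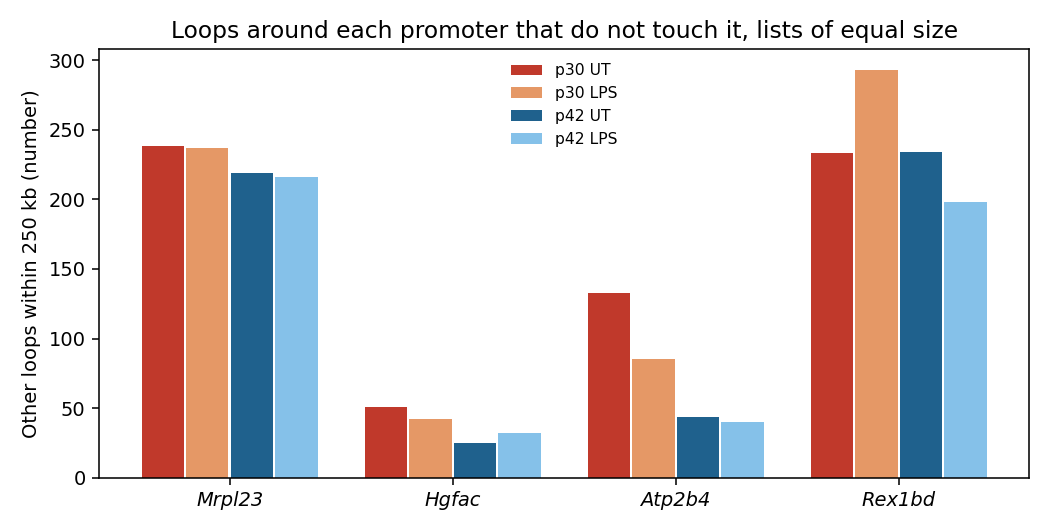
Number of loops (vertical axis) with both bins within 250 kb of the start-site bin that do not touch it, for each gene and list, in lists of equal size. Around Atp2b4 the p30 lists (133 and 85) exceed the p42 lists (44 and 40); around Mrpl23 the 4 lists lie between 216 and 238.

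Of the 8 other coding genes that start within 250 kb of Atp2b4, 6 had a promoter loop and 4 had more loops in p30 under both treatments: Snrpe (12, 11, 7 and 9), Zbed6 and Zc3h11a, which share a bin (8, 7, 3 and 3), and Lax1 (8, 4, 1 and 1). Near Mrpl23, 10 of 13 genes had a loop and 7 had more in p30 under both treatments, including Lsp1 (20, 26, 15 and 16) and Ins2 (7, 7, 2 and 2). Near Hgfac, 3 of 5 genes had a loop and Rgs12 had more in p30 (4, 4, 3 and 2). Near Rex1bd, all 27 genes had a loop, 11 had more in p30 under both treatments and Comp had more in p42. Of all genes, 14.7% had more in p30 and 13% more in p42 under both treatments. These counts hold for equal list sizes. As deposited, 2 genes near Mrpl23 (Gm49394 and Ins2), 1 near Atp2b4 (Lax1) and 0 near Hgfac and Rex1bd had more in p30 under both treatments, against 3.45% of all genes. Lsp1 then had 20 loops in p30 UT and 23 in p42 UT, Snrpe 12 and 13, and Rgs12 4 and 5. Neighbouring genes share loops with each other and with the 4 promoters, so these counts are not independent.

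The genes whose 4 loop counts were most like those of the chosen genes, by the summed absolute difference and at over 1 Mb, are given as a description. For Mrpl23 they included Atp2b4 and H2-Ob (23, 17, 13 and 7), both at a difference of 10. For Hgfac they were Dennd1c (15, 22, 12 and 8) and Hmga1, both at 6, and Mpv17l2 (15, 16, 9 and 8) at 7. For Atp2b4 they were H2-Ob at 4 and Bak1 (19, 15, 17 and 9) at 8, followed by 3 genes at 10. For Rex1bd, Hmga1 was at 4, followed by 3 genes at 6 that included Cipc and Plscr3.

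Other genes of the same families were counted from lists written with these results known. In lists of equal size, 32% of all genes had more loops in p30 and 35.5% in p42 in UT, and 39.2% and 28.3% after LPS. Of 48 genes for other proteins of the large subunit of the mitochondrial ribosome, 43 had a promoter loop as deposited and 41 at equal size. At equal size, 17 had more loops in p30 UT and 13 in p42 UT, 16 had more in p30 LPS and 10 in p42 LPS, and 5 had more in p30 under both treatments, against 14.7% of all genes. The median difference was 0 under both treatments, as it was over all genes. Mrpl23 had the most loops of the list, followed by Mrpl12 (13, 11, 15 and 10), and Mrpl13, Mrpl21, Mrpl32 and Mrpl47 had 1 loop each over the 4 lists of equal size. Of 8 other calcium pump genes, 4 had a loop, of which 0 had more in p30 and 2 in p42 in UT, and 2 and 2 after LPS. Among them were Atp2a3 (8, 8, 10 and 3) and Atp2a1 (4, 2, 4 and 3). Atp2b1, Atp2b2 and Atp2b3, the other plasma membrane pumps, had 0 loops in every list. Of 11 genes of HGF activation and signalling other than Hgfac, 6 had a loop. In UT, 2 had more in p30, 1 in p42 and 3 were equal, and after LPS 1, 2 and 3. Hgf itself had 0, 0, 0 and 2 loops, its receptor gene Met had 0, Hpn, an alternative activating protease, had 5, 7, 7 and 3, and the inhibitors Spint1 and Spint2 had 0.

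The cell type was checked on markers. All 12 hematopoietic progenitor genes had a promoter loop in every deposited list. For lists of equal size, p42 had more loops at 10 of the 12 in UT and p30 at 1, and after LPS p42 had more at 6 and p30 at 3, against 35.5% (p42) and 32% (p30) of all genes in UT and 28.3% and 39.2% after LPS. None of the 3 T lymphocyte and 3 fibroblast markers had a loop, and 1 of 3 hepatocyte markers (Apoa1, 1 loop in p42 UT) had one. Albumin (Alb) and transthyretin (Ttr), defining products of the hepatocytes in which Hgfac is best known, had 0 loops in every list. Of the skeletal muscle markers, Acta1 had 0 loops, Ckm 0, 2, 0 and 1, and Myod1 2, 2, 0 and 0, while the troponin gene Tnni2 near Mrpl23 had 29, 29, 28 and 25. Cd79a, a marker of B lymphocytes, had 3, 2, 0 and 2 loops. HiChIP does not measure expression, and a promoter loop of these genes gives no level of their RNA.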

How the data were processed

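H3K27ac HiChIP libraries of HPC-7 cells were made by the authors with an MNase-based kit, 2 per group and 8 in all. Per the study's methods, reads were mapped to mm39 (the assembly GRCm39) with BWA-MEM 0.7.17, ligation pairs were processed with pairtools, and loops were called with FitHiChIP. The authors deposited 1 list per group in bins of 5 kb at q-values up to 0.01; how replicates were pooled is not given in the sources used here. Contacts are deposited as whole-number counts without normalization. The deposited expected count follows distance and bin coverage, the contact probability is a deposited fraction of all modelled contacts (17976716 and 14503330 in p30 UT and LPS, 18999991 and 15831583 in p42 UT and LPS), and the q-value deposited by the authors is an adjusted p-value of the caller. Because listing needs significance after a coverage correction, an absent pair has no value.

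Loops were matched to the canonical starts of 21751 protein-coding genes of GENCODE M39. Lists of equal size kept the 78591 loops with the smallest q-values, whose largest q-values were 0.00897 and 0.00379 in p30 UT and LPS and 6.98e-05 and 0.01 in p42 UT and LPS. Mean coverage of peak bins was taken from coverage divided by the caller's bias. Shares have 95% Wilson intervals and contact sums exact Poisson intervals, both for counting error only. The scripts were tested on simulated lists (Python 3.11.15, pandas 2.3.3, SciPy 1.17.1). The genes, the gene lists and the comparisons were chosen with earlier results of these data known. Genes named are the 4 chosen ones, genes that start in their partner bins, the 3 genes most alike in loop counts, genes just outside the limit and the family members with most and fewest loops; some genes that this rule names are not reported here. Promoter windows were read from GRCm39 at the canonical start. RefSeq promoters (build GRCm38.p6) were not printed, since the RefSeq entry of Atp2b4 matches GRCm39 in another bin, at -45 kb from the canonical start; in them 2 of the 4 genes hold the GC box letters and 0 the CTCF motif. Promoter loop counts were repeated under 8 alternatives.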

Additional observations from a re-analysis of the deposited data

How the results depend on the processing

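No paired analysis was possible because the replicate libraries, which share their numbers between groups, are pooled into 1 list per group, and leaving out a replicate was not possible for the same reason. The p30 share of promoter loops after LPS stayed at or above 50% for all 4 genes under all 8 alternatives, with a tie for Rex1bd at q-values up to 1e-05 (5 and 5) and with merged bins. In UT it turned below 50% for Hgfac (42.9%) and Rex1bd (44.7%) in the lists as deposited, for Hgfac (40%), Atp2b4 (46.2%) and Rex1bd (44.0%) at q-values up to 0.001, and for Mrpl23 (40.9%) and Rex1bd (46.7%) at q-values up to 1e-05; the limit for equal size in p42 UT, 6.98e-05, is far stricter than that in p30 UT. The filters on contacts, distance and peaks and the wider window turned no p30 share. With adjacent partner bins merged, p30 and p42 had equal numbers for Mrpl23 in UT (8 and 8) and Rex1bd in UT (5 and 5) and after LPS (6 and 6), so no p30 excess remained there. The LPS share of promoter loops in p30 crossed 50% for Mrpl23 (55.0%) at q-values up to 1e-05, for Hgfac (49.5%) and Rex1bd (50.7%) with 1 more bin on each side, and for Rex1bd at q-values up to 0.001 (54.2%) and with merged bins (54.5%). In p42 Rex1bd was at 50% with equal size and 30% as deposited, and the share crossed for Hgfac as deposited (31.0%), at q-values up to 0.001 (31.8%) and 1e-05 (38.5%) and with merged bins (42.9%). The cause was not tested.

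Divided by expected counts, the p30 share of contacts at shared loops was 50.3% in UT and 55.3% after LPS for Mrpl23 and 48.9% in UT for Hgfac, against 46.6% in UT and 51.9% after LPS over all loops shared by both lists. Contacts over expected restricted to loops in all 4 lists were 4.85 and 4.53 (p30, UT and LPS) and 4.60 and 3.63 (p42, UT and LPS) for Mrpl23 and, in this order, 9.21, 9.65, 9.93 and 7.98 for Hgfac, 3.09, 3.34, 3.02 and 2.78 for Atp2b4, and 9.35, 9.32, 11.4 and 9.09 for Rex1bd. Without loops under 20 kb they were 5.49, 6.39, 5.68 and 6.38 for Mrpl23, 4.56, 4.55, 4.34 and 4.49 for Atp2b4 and 6.32 for Hgfac in p30 LPS.

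The p30 to p42 ratio of start-site coverage, for raw coverage in UT and after LPS, was 1.04 and 1.62 for Mrpl23, 1.33 and 1.95 for Hgfac, 0.91 and 1.47 for Atp2b4, and 0.96 and 1.25 for Rex1bd. Per modelled contact it was 1.09 and 1.77, 1.41 and 2.13, 0.96 and 1.61, and 1.02 and 1.36 in that order. For partner bins the raw ratios were 0.91 and 1.51, 1.04 and 1.22, 1.10 and 1.25, and 0.89 and 1.23, and per modelled contact 0.96 and 1.65, 1.10 and 1.33, 1.16 and 1.36, and 0.94 and 1.34. Depth limits single loops: the 281 promoter loops of the 4 genes over the deposited lists held 9 to 146 contacts, with a median of 17.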
